A study of Mus musculus with 4 samples.

Results

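The genes described here are 10 ligands and receptors of the platelet-derived growth factor (PDGF) and vascular endothelial growth factor (VEGF) families, out of 55421 genes listed in the mouse count data. They were taken by name, and each symbol was matched to its Ensembl identifier through the GENCODE M21 annotation of mm10. No measured value entered this matching, but the members were chosen with earlier results of these data known. They comprise the PDGF ligands Pdgfa, Pdgfb, Pdgfc and Pdgfd, the PDGF receptor Pdgfrb, the VEGF ligands Vegfa, Vegfb and Vegfc, and the VEGF receptors Flt1 and Kdr. All 10 passed the filter on low counts and were tested, although Flt1 passed only through the libraries in which it was high. The cultures came from the prefrontal cortex (PFC) of wild-type C57BL/6 mice at postnatal day 0, which was stripped of meninges and vessels, dissociated with papain and grown in neurobasal medium with B27 for 10 days. The FGF2 group had FGF2 (fibroblast growth factor 2) added to the medium at 5 ng/mL, and the no FGF2 group was grown in the same medium without it. Each group had 2 libraries of total RNA from the bulk culture, numbered replicates 1 and 2, and the study compared them to ask whether FGF2 acts on mouse cultures as it does on human ones. The labels and methods do not say whether replicates 1 and 2 of the mouse cultures were grown separately, so p-values measure only the spread between these libraries, which may be technical.

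PDGF and VEGF are secreted dimers that bind receptor tyrosine kinases on the surface of neighbouring cells. In the brain, PDGF-A acts through Pdgfra on oligodendrocyte precursors, while PDGF-B from endothelial cells acts through Pdgfrb on pericytes and other mural cells that wrap the vessels. VEGF-A is made by astrocytes, neurons and other cells, is induced by low oxygen, and drives endothelial growth through Kdr (VEGFR2), whereas Flt1 (VEGFR1) binds VEGF-A tightly and is mostly regarded as a trap for it.

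Counts on genes totalled between 9166432 and 10799886 per library. A level is given as CPM, the counts scaled to a common library total after adjustment by TMM, and 3 counts correspond to between 0.277 and 0.331 CPM. Neuronal, astrocyte and oligodendrocyte lineage markers were all abundant, with summed levels of 3810 to 5520 CPM for 10 neuronal, 7740 to 12800 CPM for 10 astrocyte and 491 to 2270 CPM for 12 oligodendrocyte lineage genes. In contrast, markers of endothelial cells, the usual carriers of Flt1 and Kdr, were scarce, with a summed level of 22.9 to 31.0 CPM for 12 genes. The endothelial marker Cldn5 had no count in any library, Cdh5 had at most 3 and Emcn at most 1. These are bulk libraries, so fewer cells of a type and less RNA per cell cannot be told apart in any of the values that follow.

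The start regions of the called VEGF genes, the receptors Flt1 and Kdr, which moved in opposite directions, and the ligands Vegfa and Vegfb, are shown so that their letters can be set beside the levels. Each is the 250 bases before the RefSeq transcription start on GRCm38.p6, 5′ to 3′ in the direction of the gene, which is the minus strand for these 4 genes. They lie at chr5:147726012-147726261 for Flt1, chr5:75978456-75978705 for Kdr, chr17:46032378-46032627 for Vegfa (the outermost of 2 listed starts) and chr19:6987652-6987901 for Vegfb. Capitals mark GC boxes, the letters GGGCGG on either strand.
Flt1: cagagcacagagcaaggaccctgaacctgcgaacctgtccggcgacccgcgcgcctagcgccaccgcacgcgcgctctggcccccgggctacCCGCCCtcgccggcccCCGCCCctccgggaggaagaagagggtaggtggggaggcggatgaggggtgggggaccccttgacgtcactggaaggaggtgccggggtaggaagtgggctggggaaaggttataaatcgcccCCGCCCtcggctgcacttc
Kdr: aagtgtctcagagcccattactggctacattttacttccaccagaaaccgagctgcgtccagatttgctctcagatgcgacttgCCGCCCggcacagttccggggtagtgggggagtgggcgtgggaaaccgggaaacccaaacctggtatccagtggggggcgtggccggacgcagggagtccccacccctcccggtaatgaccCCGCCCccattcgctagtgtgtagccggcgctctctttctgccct
Vegfa: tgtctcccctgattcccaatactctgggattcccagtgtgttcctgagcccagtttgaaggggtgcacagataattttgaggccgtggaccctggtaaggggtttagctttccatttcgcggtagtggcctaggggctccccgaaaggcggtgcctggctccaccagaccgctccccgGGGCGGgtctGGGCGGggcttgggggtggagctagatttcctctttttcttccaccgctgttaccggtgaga
Vegfb: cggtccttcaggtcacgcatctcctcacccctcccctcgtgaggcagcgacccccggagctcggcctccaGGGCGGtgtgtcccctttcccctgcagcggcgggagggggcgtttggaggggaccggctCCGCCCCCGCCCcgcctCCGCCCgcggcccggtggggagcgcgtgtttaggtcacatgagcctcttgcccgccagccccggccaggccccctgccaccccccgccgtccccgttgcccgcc

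The GC box occurred 3 times before Flt1, 2 times before Kdr, 2 times before Vegfa and 4 times before Vegfb, where 32.7% of all 32851 RefSeq windows of this length held at least 1. All 4 windows were rich in G and C, at 70.4% for Flt1, 61.6% for Kdr, 59.2% for Vegfa and 76.4% for Vegfb, where the median window had 52.4%. Also searched on both strands were the exact letters CGGAAG (a form of the ETS site), ACGTG (a form of the hypoxia response core) and TGANTCA (AP-1 site). They were not found in these 4 windows, while 13.6%, 16.6% and 6.75% of all windows held them. Other forms of these sites were not searched, so their absence is not shown. In the counts of these 4 exact strings, the windows of Flt1 and Kdr differed only in the number of GC boxes.

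With FGF2, 4 of the 10 members rose and 1 fell when the adjusted p-value had to lie under 0.05 (edgeR, quasi-likelihood, Benjamini-Hochberg over the 17144 genes tested). Pdgfrb, Vegfa, Vegfb and Flt1 rose, Kdr fell, and the other 5, which include all 4 PDGF ligands, did not pass. Of all tested genes 40.5% were called, 20.7% as higher and 19.9% as lower, so that 5 of 10 called members was a share near that of the genome as a whole. The levels of 6 members were higher in each library with FGF2 than in each library without, against 33.6% of all tested genes, and those of 1 member were lower, against 33.4%. In all, 7 of 10 members did not overlap between the groups, where 67.1% of all genes did not. With DESeq2, which called 22.4% of the genes it gave an adjusted p-value, only Pdgfrb and Flt1 passed among the 10. The median log2 fold change of the members was 0.27, beside 0.00 for all tested genes.

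**Figure D1:**
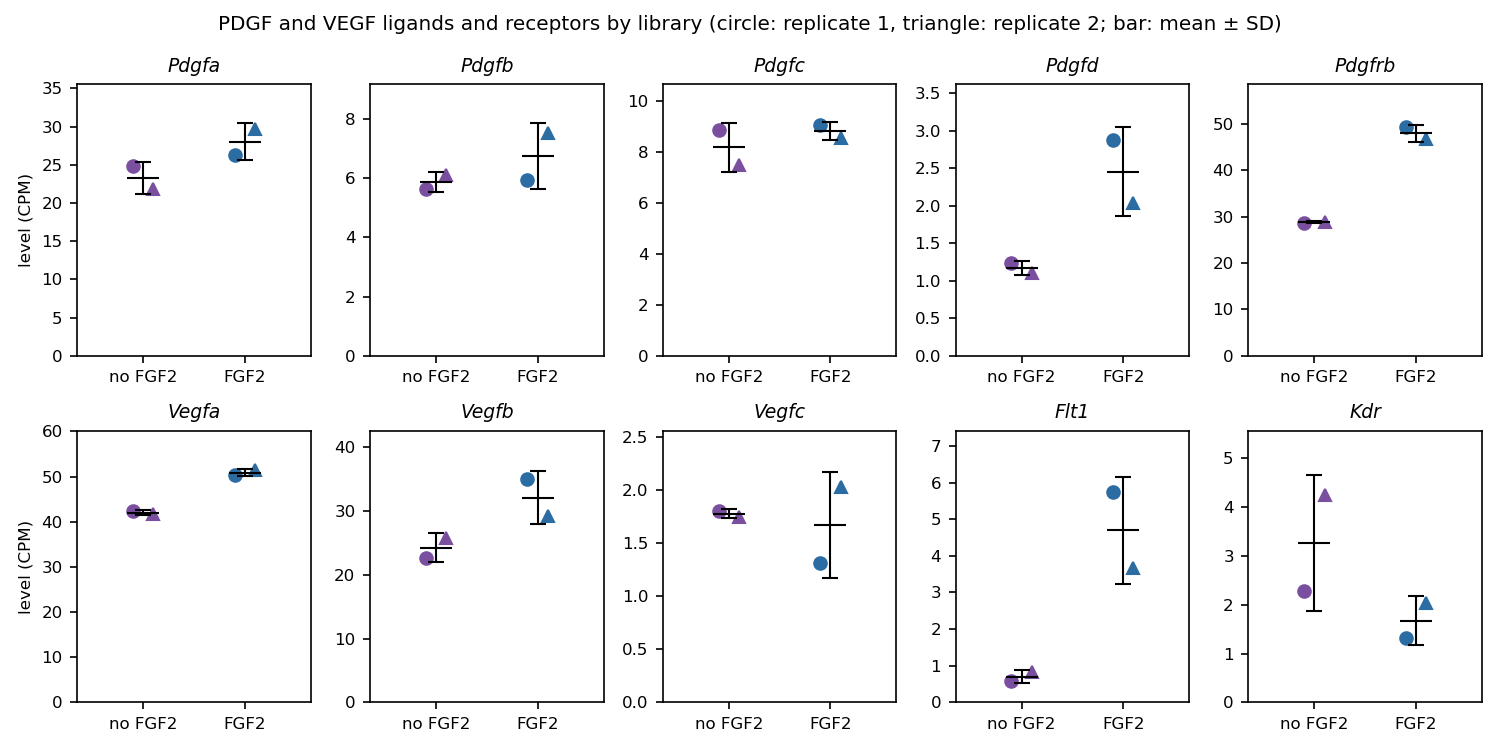
Level of each member in CPM (linear axis from 0) in the 2 libraries without FGF2 and the 2 with FGF2, with circles for replicate 1, triangles for replicate 2 and bars for the mean ± SD. Flt1 rises from below 1 CPM to between 3.66 and 5.73 CPM, Kdr falls, and Pdgfb, Pdgfc and Vegfc overlap between the groups.

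Flt1 showed the largest change of the 10. It (ENSMUSG00000029648) lies on chromosome 5 of mm10 from 147561604 to 147726011 on the minus strand and had 52 and 36 counts with FGF2 against 6 and 9 without it. The corresponding levels were 5.73 and 3.66 CPM with FGF2 and 0.571 and 0.831 CPM without. Every library with FGF2 was thus far above every library without, although the libraries with FGF2 differed between themselves. The level was 6.55-fold higher with FGF2, a log2 fold change of 2.71 (standard error 0.45, 95% interval 1.84 to 3.59, edgeR adjusted p = 1.1e-08). Since Flt1 passed the filter on low counts only through the libraries with FGF2, the fit without that filter bears on it more directly, and there the log2 fold change was 2.72 (adjusted p = 6.2e-09). The gene count does not separate the membrane receptor from the shorter soluble form that the same gene encodes.

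Kdr, which carries most of the signalling of VEGF-A, moved in the opposite direction. It (ENSMUSG00000062960) lies on the same chromosome from 75932827 to 75978458 on the minus strand and had 12 and 20 counts with FGF2 against 24 and 46 without it. Its levels were 1.32 and 2.03 CPM with FGF2 and 2.28 and 4.25 CPM without, so the groups did not overlap, but the higher library with FGF2 lay close to the lower library without. The log2 fold change was -0.95 (standard error 0.41, 95% interval -1.75 to -0.16, edgeR adjusted p = 0.048). This call rested on few counts and on replicate 1 with FGF2 and replicate 2 without FGF2, since the log2 fold change was -0.69 (adjusted p = 0.23) and -0.44 (adjusted p = 0.62) when either was left out. It was also lost without the expression filter (adjusted p = 0.068), with limma-voom (adjusted p = 0.071), with a replicate block (adjusted p = 0.056) and with DESeq2 (adjusted p = 0.32).

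The balance between these receptors was compared within each library on a per-length scale, CPM per kb of exon. The ratio of Flt1 to Kdr was 2.90 and 1.20 with FGF2 and 0.167 and 0.131 without FGF2. Flt1 therefore had the higher level of the pair in each library with FGF2 and the lower level in each library without. The third VEGF receptor, Flt4, which serves lymphatic vessels, had 2 and 1 counts with FGF2 against 3 and 0 without it, which is at or under the limit of 3 counts, and was not tested. Summed over Flt1, Kdr and Flt4, the VEGF receptors had 0.553 ± 0.0629 CPM per kb with FGF2 and 0.431 ± 0.143 without (SD, n = 2, exact permutation test, two-sided, p = 0.667). With 2 libraries a group the lowest p-value this test can reach is 0.333. The share of Flt1 in the summed VEGF receptors was 62.2% ± 12.5 with FGF2 and 12.2% ± 0.882 without, and that of Kdr 34.4% ± 14.0 and 82.6% ± 8.32 (SD, n = 2).

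Among 12 endothelial markers, 7 could be tested, of which Slco1a4 and Vwf rose and the other 5 did not pass. Over all tested genes 20.7% were called higher and 19.9% lower. Slco1a4, a transporter of the blood-brain barrier, had 51 and 55 counts with FGF2 against 11 and 14 without it (log2 fold change 2.25, standard error 0.37, edgeR adjusted p = 1.2e-08). Vwf, the von Willebrand clotting factor, had 38 and 47 counts with FGF2 against 21 and 28 without it (log2 fold change 0.96, adjusted p = 0.013). Pecam1, an adhesion molecule of endothelial junctions, had 21 and 17 counts with FGF2 against 19 and 29 without it, a log2 fold change of -0.16 that did not pass (adjusted p = 0.81). The summed level of the 12 markers was 31.0 and 30.2 CPM with FGF2 and 22.9 and 25.4 CPM without, with 4 of the 12 at no more than 3 counts in every library. The Tie receptors of endothelial cells were similarly scarce, with no count of Tie1 in any library and at most 5 of Tek. The part of endothelial cells in the changes of Flt1 and Kdr was not tested.

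**Figure D2:**
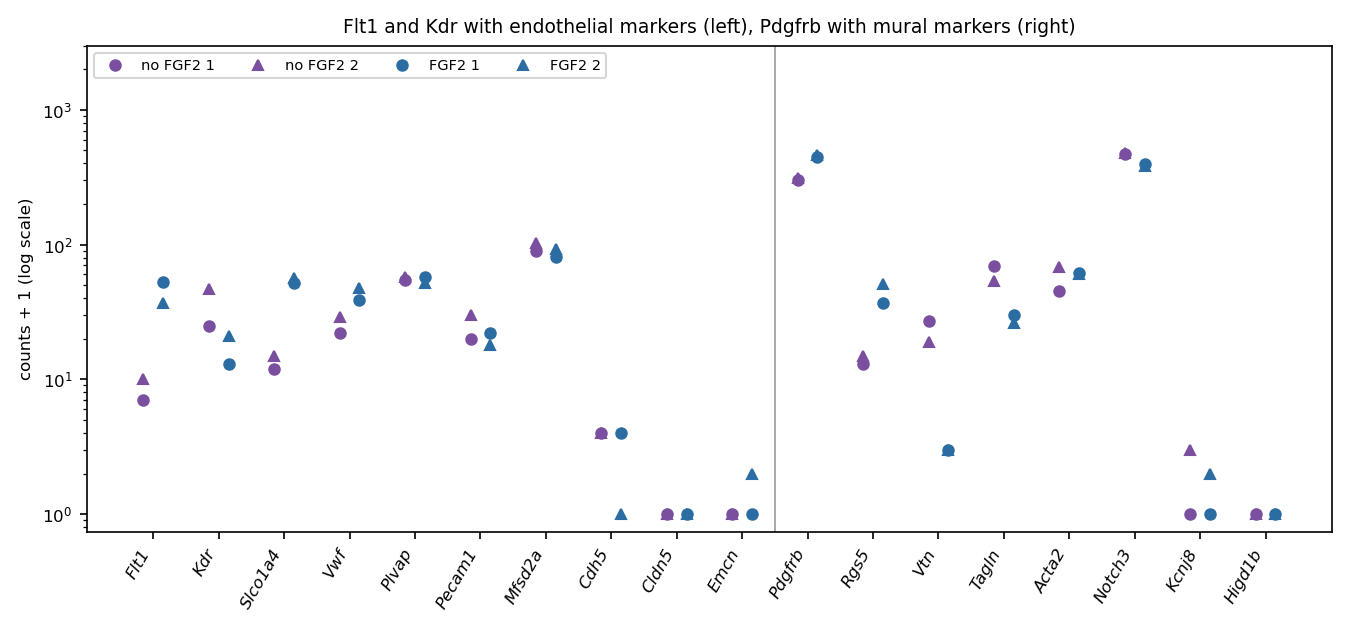
Counts plus 1 on a log axis in each library for Flt1, Kdr and 8 endothelial markers, left of the line, and for Pdgfrb and 7 mural markers, right of it, with purple for no FGF2, blue for FGF2, circles for replicate 1 and triangles for replicate 2. Flt1 and Slco1a4 are both higher with FGF2, while Cldn5 and Higd1b are at 0 in every library.

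Pdgfrb, a receptor for PDGF-B and PDGF-D, rose with the smallest adjusted p-value of the members. It (ENSMUSG00000024620) lies on chromosome 18 from 61045150 to 61085061 on the plus strand and had 446 and 458 counts with FGF2 against 301 and 313 without it. Its levels of 49.2 and 46.6 CPM with FGF2 were well above those of 28.6 and 28.9 CPM without, and within each group the libraries lay close together. The level was 1.66-fold higher with FGF2 (95% interval 1.45 to 1.91), a log2 fold change of 0.73 (standard error 0.10, edgeR adjusted p = 7.9e-12), and it passed under every alternative tried, including DESeq2 (adjusted p = 1.7e-05).

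Pdgfra, the other PDGF receptor and a marker of oligodendrocyte precursors, was more abundant and rose by nearly the same factor. It had 2461 and 2561 counts with FGF2 against 1661 and 1740 without it, a log2 fold change of 0.74 (standard error 0.05, edgeR adjusted p = 5.3e-50). The ratio of Pdgfra to Pdgfrb, per kb of exon, was 3.02 and 3.06 with FGF2 and 3.02 and 3.04 without FGF2. With the longest transcript as the length of each gene, the ratio was between 4.38 and 4.44, so its size depended on the length used. A change of length scales all 4 libraries alike, so it cannot test the relative spread between them. Summed over both, the PDGF receptors had 35.3 ± 1.10 CPM per kb with FGF2 and 21.2 ± 0.219 without (SD, n = 2, two-sided exact permutation p = 0.333, which is the lowest value reachable with 2 libraries a group), a ratio of 1.67. Pdgfrl, a secreted protein that resembles the PDGF receptors, had 87 and 92 counts with FGF2 against 67 and 55 without it, a log2 fold change of 0.73 (standard error 0.22, edgeR adjusted p = 0.0036). That of Pdgfrl no longer passed without replicate 2 of the no FGF2 group (0.57, adjusted p = 0.12) or with DESeq2 (adjusted p = 0.12).

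Mural markers, by which cells carrying Pdgfrb in vivo are usually recognized, went both ways. Of 12 such genes 6 could be tested, and Rgs5 rose and Vtn and Tagln fell. Beside these counts stand 20.7% of all tested genes called higher and 19.9% called lower. Acta2, Notch3 and Anpep had log2 fold changes of 0.29, -0.10 and -0.20 and did not pass (adjusted p = 0.39, 0.44 and 0.82). Rgs5, a regulator of G protein signalling in pericytes, had 36 and 50 counts with FGF2 against 12 and 14 without it (log2 fold change 1.89, edgeR adjusted p = 1.1e-05). Vtn, the adhesion protein vitronectin, had 2 and 2 counts with FGF2 against 26 and 18 without it (adjusted p = 3.3e-05), and it passed the filter only through the libraries without FGF2. With at least 10 counts required in every library, 1 mural gene was lower. The pericyte genes Kcnj8 and Higd1b had at most 2 and 0 counts. The summed level of the 12 mural markers was 61.2 and 55.2 CPM with FGF2 and 61.0 and 61.1 CPM without, most of it from Notch3, and the other 11 genes summed to 17.4 and 16.5 CPM against 16.5 and 17.5 CPM. Of 12 genes of fibroblasts and meninges, other cells known to carry PDGF receptors, 8 could be tested, and 3 fell and 1 rose. The shares of all tested genes to set beside them are again 20.7% higher and 19.9% lower. Col1a1, the main chain of type I collagen, had 14 and 20 counts with FGF2 against 92 and 83 without it (log2 fold change -2.18, edgeR adjusted p = 6.0e-12), whereas the proteoglycan gene Ogn had 91 and 130 counts with FGF2 against 39 and 50 without it (1.48, adjusted p = 4.4e-10). Their summed level was 147 and 152 CPM with FGF2 and 207 and 199 CPM without. Most of it came from Thy1, a surface protein that neurons also carry in abundance, which had 1133 and 1277 counts with FGF2 against 1885 and 1876 without it (log2 fold change -0.47, adjusted p = 5.8e-16). The other 11 genes summed to 21.7 and 22.2 CPM with FGF2 and 28.0 and 26.0 CPM without.

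Genes of the oligodendrocyte lineage, whose precursors carry Pdgfra, rose in 11 of 12 cases, and Matn4 did not pass (log2 fold change -0.31, adjusted p = 0.59). Over all tested genes 20.7% were called higher. Mbp, which encodes myelin basic protein, rose by 2.18 on the log2 scale. The median log2 fold change of the 12 genes was 1.81, beside 0.74 for Pdgfra. Cspg4, the proteoglycan NG2 of both precursors and pericytes, rose by 0.56 on the log2 scale (edgeR adjusted p = 8.5e-08). The part of mural, fibroblast or oligodendrocyte lineage cells in the rise of Pdgfrb was not tested.

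**Figure D3:**
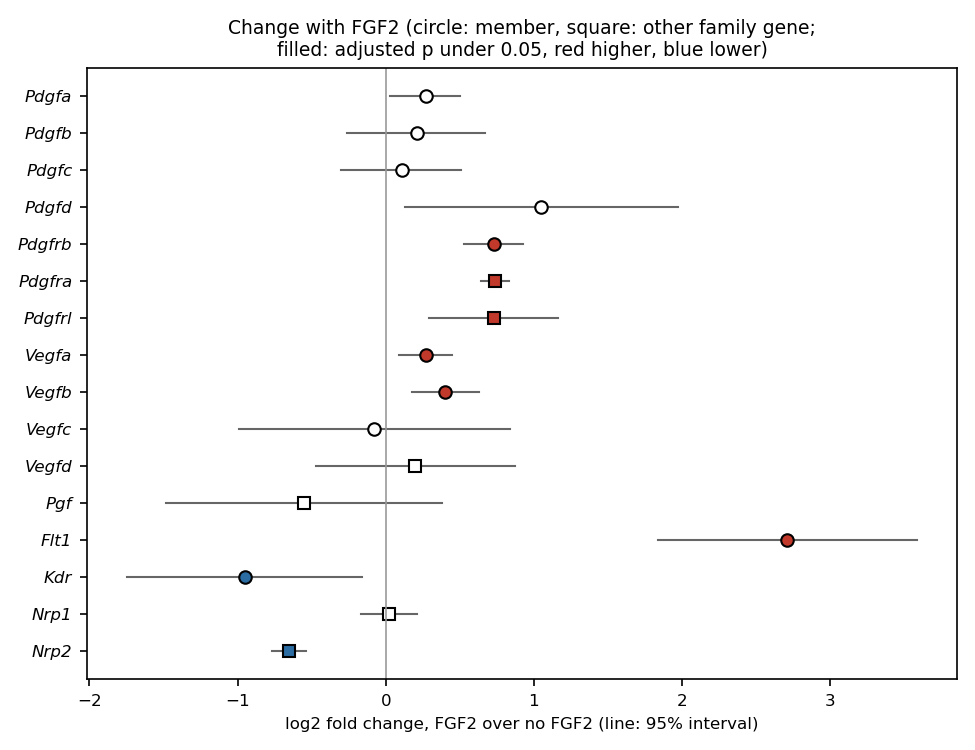
Log2 fold change with FGF2 over no FGF2 (horizontal axis) for the 10 members (circles) and 6 other tested genes of the families (squares), with the 95% interval as a line and filled symbols for genes past the adjusted threshold, red for higher and blue for lower. The PDGF receptors Pdgfrb and Pdgfra sit together at 0.73 and 0.74, and Flt1 at 2.71 and Kdr at -0.95 lie on opposite sides of 0.

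Vegfa, the main angiogenic ligand, rose slightly. It (ENSMUSG00000023951) lies on chromosome 17 from 46016993 to 46032369 on the minus strand and had 456 and 507 counts with FGF2 against 446 and 452 without it, or 50.3 and 51.5 CPM against 42.4 and 41.7 CPM. The replicates lay close together, and the groups did not overlap. The level was 1.21-fold higher with FGF2 (95% interval 1.07 to 1.37), a log2 fold change of 0.27 (standard error 0.09, edgeR adjusted p = 0.0093). The fold change stayed between 0.25 and 0.29 when a library was left out, but the adjusted p-value was then 0.057 without replicate 2 with FGF2, 0.056 and 0.087 without replicate 1 or 2 of the no FGF2 group, and it was 0.16 with DESeq2. The counts do not separate the splice forms of Vegfa, which differ in how they bind to the matrix.

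Vegfb, a ligand of Flt1 but not of Kdr that is known for roles in fatty acid uptake and cell survival, also rose. It (ENSMUSG00000024962) lies on chromosome 19 from 6982473 to 6987651 on the minus strand and had 318 and 286 counts with FGF2 against 237 and 279 without it. These are 35.0 and 29.1 CPM with FGF2 and 22.6 and 25.8 CPM without, with a wider spread within the groups than for Vegfa. The level was 1.32-fold higher (95% interval 1.13 to 1.55), a log2 fold change of 0.40 (standard error 0.12, edgeR adjusted p = 0.002). Without replicate 1 with FGF2 it was 0.26 (adjusted p = 0.13), without replicate 1 of the no FGF2 group 0.31 (adjusted p = 0.10), and with DESeq2 the adjusted p-value was 0.11.

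Vegfc, which acts on Flt4 and lymphatic growth, was low at 12 and 20 counts with FGF2 against 19 and 19 without it. The libraries with FGF2 lay on either side of those without, and the interval of the ratio reached from 0.503 to 1.78 (log2 fold change -0.08, edgeR adjusted p = 0.92). Vegfc (ENSMUSG00000031520) lies on chromosome 8 from 54077606 to 54187096 on the plus strand. The related ligand Vegfd had 39 and 26 counts with FGF2 against 41 and 23 without it (log2 fold change 0.20, adjusted p = 0.69). Pgf, the placental growth factor that binds Flt1, had 8 and 18 counts with FGF2 against 16 and 27 without it (log2 fold change -0.55, adjusted p = 0.38).

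On the per-length scale, Vegfb and Vegfa made up most of the VEGF ligands in either condition. With FGF2 they held 57.9% ± 3.49 and 34.6% ± 3.10 of the sum over 5 ligands, and without FGF2 54.6% ± 3.16 and 35.7% ± 1.71 (SD, n = 2). The shift in these shares was smaller than the sum of the SDs of the groups. The summed level was 34.4 ± 2.46 CPM per kb with FGF2 and 27.6 ± 0.999 without (SD, n = 2, exact permutation test, two-sided, p = 0.333), a ratio of 1.25. That p-value is the lowest reachable with 2 libraries a group, so the test cannot decide whether the sum changed.

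**Figure D4:**
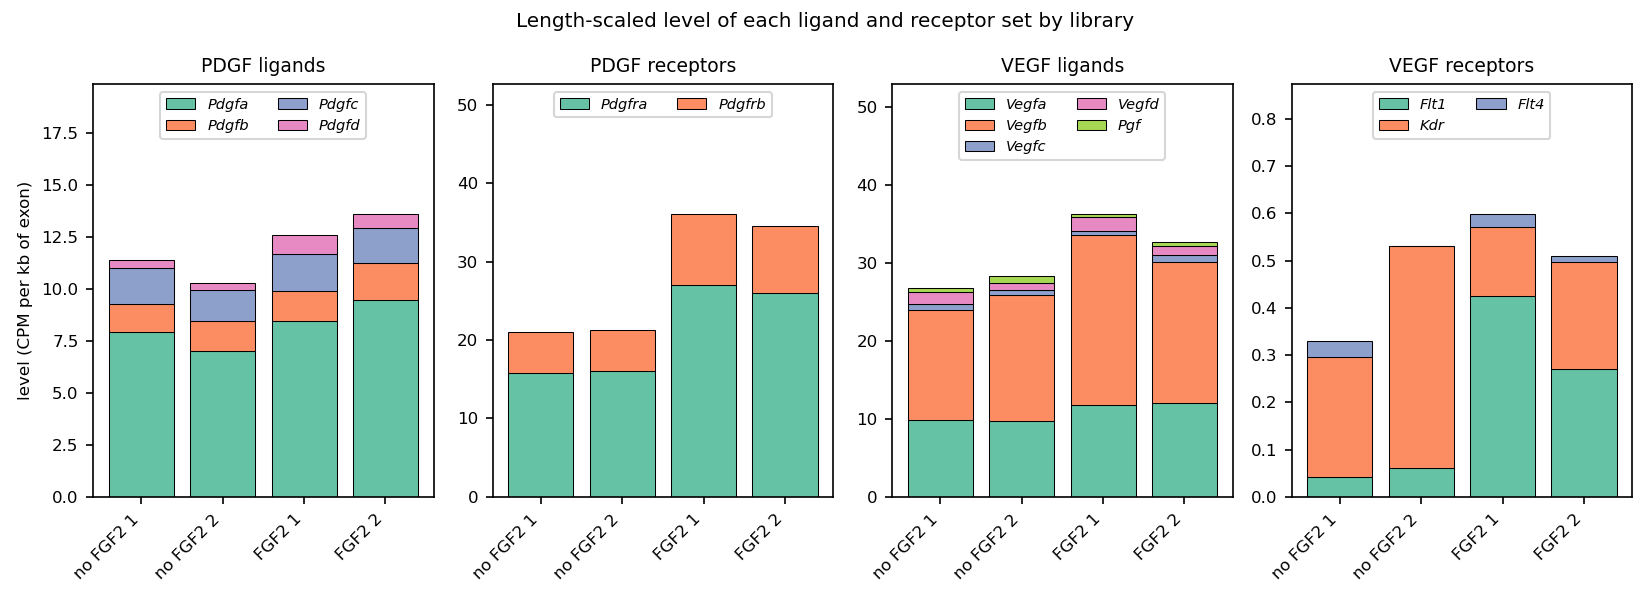
Length-scaled level (CPM per kb of exon, stacked bars from 0) of each gene in the PDGF ligands, PDGF receptors, VEGF ligands and VEGF receptors in each of the 4 libraries, with a separate axis for each set. In the stack of the VEGF receptors, which rests on few counts, Flt1 makes up 71.0% and 53.3% with FGF2 and 12.8% and 11.6% without. The proportions of the PDGF receptors are nearly the same in all libraries.

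The PDGF ligands gave 0 calls among 4 genes with edgeR, DESeq2 and limma-voom, although 2 of them had an unadjusted p-value below 0.05 with edgeR and with limma-voom and none with DESeq2. Of all tested genes 40.5% were called with edgeR, and DESeq2 called 22.4% of those it gave an adjusted p-value. Pdgfa, the ligand of Pdgfra on precursors, had 239 and 292 counts with FGF2 against 261 and 236 without it. Its levels were 26.3 and 29.7 CPM with FGF2 and 24.8 and 21.8 CPM without, so the groups did not overlap, but the gap between them was smaller than the difference between replicates. The log2 fold change was 0.27 (standard error 0.12, 95% interval 0.03 to 0.50, edgeR adjusted p = 0.064). Pdgfa (ENSMUSG00000025856) lies on chromosome 5 from 138976014 to 138997370 on the minus strand. Without replicate 1 of the FGF2 group its log2 fold change was 0.35 and passed (adjusted p = 0.036).

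Pdgfd, which is secreted in a latent form and activates Pdgfrb once cut, had the largest difference of the ligands but few counts. It (ENSMUSG00000032006) lies on chromosome 9 from 6168584 to 6378850 on the plus strand and had 26 and 20 counts with FGF2 against 13 and 12 without it, or 2.87 and 2.03 CPM against 1.24 and 1.11 CPM. The log2 fold change was 1.05 (standard error 0.47, 95% interval 0.13 to 1.97, edgeR adjusted p = 0.061). It passed only when genes were required to have at least 10 counts in every library (adjusted p = 0.023), a setting that tests fewer genes.

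Pdgfb, the ligand that recruits pericytes, had 54 and 74 counts with FGF2 against 59 and 66 without it, and its groups overlapped (log2 fold change 0.21, standard error 0.24, edgeR adjusted p = 0.53). Pdgfc, another ligand of Pdgfra that is secreted in latent form, had 82 and 84 counts with FGF2 against 93 and 81 without it, with overlapping groups as well (0.11, standard error 0.21, adjusted p = 0.73). The 95% interval of the ratio was 0.834 to 1.60 for Pdgfb and 0.812 to 1.43 for Pdgfc. Pdgfb (ENSMUSG00000000489) lies on chromosome 15 from 79995874 to 80014977 on the minus strand and Pdgfc (ENSMUSG00000028019) on chromosome 3 from 81036416 to 81214040 on the plus strand. An antisense gene, 6330403L08Rik, covers 813 bases or 26.1% of the exonic length of Pdgfa, and the strand setting of the counting is not given in the sources used here. It had 121 and 129 counts with FGF2 against 152 and 162 without it (log2 fold change -0.15, adjusted p = 0.48).

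Pdgfa held the largest share of the PDGF ligands per kb of exon, 68.5% ± 1.76 with FGF2 and 68.8% ± 1.11 without (SD, n = 2). The share of Pdgfd was 5.98% ± 1.78 and 3.42% ± 0.00528. Summed over the 4 genes the level was 13.1 ± 0.771 CPM per kb with FGF2 and 10.9 ± 0.827 without (SD, n = 2, exact permutation test, two-sided, p = 0.333), a ratio of 1.21. Here too the p-value is the lowest reachable with 2 libraries a group, so the test cannot decide.

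Over all 10 members, the per-length levels followed much the same order in both conditions, where neighbours are called apart when they differ by more than the sum of their SDs. Without FGF2 the order was Vegfb at 15.1 ± 1.42 CPM per kb, Vegfa at 9.82 ± 0.115, Pdgfa at 7.48 ± 0.690 and Pdgfrb at 5.25 ± 0.0339 (SD, n = 2). Below these came Pdgfc at 1.60 ± 0.190 and Pdgfb at 1.41 ± 0.0817, which were not apart, and then Vegfc at 0.728 ± 0.0154. Pdgfd at 0.372 ± 0.0289 and Kdr at 0.362 ± 0.154 were not apart, and Flt1 was lowest at 0.0519 ± 0.0136. With FGF2 the order began with Vegfb at 20.0 ± 2.63 and Vegfa at 11.9 ± 0.214, and Pdgfa at 8.98 ± 0.759 and Pdgfrb at 8.74 ± 0.334 were no longer apart. Pdgfc at 1.73 ± 0.0690 and Pdgfb at 1.62 ± 0.267 were again not apart, nor were Pdgfd at 0.777 ± 0.187 and Vegfc at 0.685 ± 0.205. Flt1 at 0.348 ± 0.108 and Kdr at 0.186 ± 0.0557 came last, and Flt1, although above Kdr in each library with FGF2, was not apart from it by this measure.

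Of the neuropilins, coreceptors that bind VEGF and semaphorins, Nrp2 fell, with 952 and 986 counts with FGF2 against 1679 and 1759 without it (log2 fold change -0.65, standard error 0.06, edgeR adjusted p = 1.5e-26). Nrp1 had 378 and 420 counts with FGF2 against 423 and 464 without it and did not pass (0.02, standard error 0.10, adjusted p = 0.89, or -0.0046 with upper quartile scaling). Neurons are among the cells that carry neuropilins, and neuronal markers fell in 9 of 10 cases with a median log2 fold change of -0.46, where 19.9% of all tested genes were called lower. The remaining marker, Nefl, rose by 0.38 (edgeR adjusted p = 0.0014). Tubb3, a neuronal tubulin, was at -1.10 (adjusted p = 9.4e-144) and Dcx, a protein of young neurons, at -0.80 (adjusted p = 3.6e-100). The part of neuronal content in the fall of Nrp2 was not tested.

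Genes that process or retain these ligands moved in both directions, with 6 higher and 2 lower of 11 tested and a median log2 fold change of 0.30, beside 0.00 for all genes. Among all tested genes 20.7% were called higher and 19.9% lower. Ccn2, a matrix protein that binds VEGF-A, had 1133 and 1115 counts with FGF2 against 205 and 202 without it (log2 fold change 2.64, edgeR adjusted p = 3.6e-189). Adamts1, a protease that can also bind VEGF-A, rose by 1.43 on the log2 scale (adjusted p = 2.9e-44), and Sparc, a matrix protein that binds both PDGF and VEGF, by 0.55 (adjusted p = 1.9e-53). Adamts3 and Ccbe1, which together cut and activate VEGF-C, fell by 0.64 and fell by 0.52 on the log2 scale (adjusted p = 9.0e-15 and 0.014). The proteases known to activate latent PDGF, Plat for Pdgfc and Plau for Pdgfd, did not pass (log2 fold change -0.17 and -0.68, adjusted p = 0.11 and 0.29).

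Of 15 adaptors and enzymes shared by receptors of this kind, 5 rose and 4 fell, with a median log2 fold change of -0.04. Among all tested genes 20.7% were called higher and 19.9% lower. Gab1, a docking protein, rose by 0.66 on the log2 scale (edgeR adjusted p = 3.5e-31) and Shc1 by 0.68 (adjusted p = 1.4e-09), while Pik3r1, a regulatory subunit of PI3 kinase, was at -0.31 (adjusted p = 2.8e-15) and its catalytic partner Pik3ca at 0.44 (adjusted p = 7.4e-13). Of 15 hypoxia pathway genes, which include known regulators and companions of Vegfa, 6 rose and 1 fell, with a median of 0.05. These counts stand beside the same 20.7% and 19.9% of all tested genes. Hif1a, the oxygen-sensing transcription factor, rose by 0.72 (adjusted p = 6.4e-41), Ndrg1 by 1.12 (adjusted p = 1.2e-36) and Egln3 by 0.73 (adjusted p = 3.0e-04), while Car9, a carbonic anhydrase used as a mark of hypoxia, was at -1.41 (adjusted p = 1.7e-05). The other hypoxia pathway genes that rose were P4ha1 by 0.28, Bnip3 by 0.33 and Arnt by 0.25 (edgeR adjusted p = 0.0035, 0.0051 and 0.0064). The glucose transporter Slc2a1 and the kinase Pdk1, other genes known to be induced by hypoxia, were at -0.06 and -0.02 and did not pass (adjusted p = 0.59 and 0.88).

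Other secreted angiogenic signals also changed. Of 13 such genes and their receptors 8 could be tested, and 4 rose and 2 fell, with a median log2 fold change of 0.43. Among all tested genes 20.7% were called higher and 19.9% lower. Angptl4, an angiopoietin-like protein, had 88 and 79 counts with FGF2 against 11 and 12 without it (log2 fold change 3.02, edgeR adjusted p = 1.6e-18). Thbs2, an inhibitor of angiogenesis, rose by 2.02 (adjusted p = 5.2e-44), whereas the related inhibitor Thbs1 was at -0.54 (adjusted p = 1.9e-06). Hgf and Angpt1, growth factors for epithelium and vessels, rose by 1.02 and 0.76 (adjusted p = 2.6e-17 and 5.2e-11). Markers of other cell types moved as well, with 8 of 10 astrocyte genes higher at a median of 0.41 and 4 of 6 tested microglial genes higher at a median of 0.90. Gfap and Aqp4, markers of astrocytes, rose by 1.06 and 0.78 on the log2 scale (adjusted p = 4.7e-301 and 2.1e-127). Of the same list, Fgfr3 was lower at -0.44 (edgeR adjusted p = 1.5e-06) and S100b, at -0.18, did not pass (adjusted p = 0.22). Csf1r, the growth factor receptor of microglia, had 49 and 52 counts with FGF2 against 21 and 21 without it (1.43, adjusted p = 8.7e-05). Microglial markers were summed at 39.2 and 43.1 CPM with FGF2 and 25.3 and 25.7 CPM without.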

How the data were processed

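RNA-seq libraries of P0 mouse PFC cultures, 2 with and 2 without FGF2, were analysed. For these samples the authors mapped the reads to mm10 with HISAT2 2.1.0, kept reads with a mapping quality of at least 20 and counted them per gene with HTSeq 0.11.2 (versions per the submitters' processing notes), and they deposited raw counts without normalization. The annotation release and strand setting are not given in the sources used here, and reads that map to several places were mostly lost to the quality filter. Of 55421 listed genes 55240 matched GENCODE M21. HTSeq tallies outside genes, which hold 43.2% to 45.9% of all tallied fragments as in no feature and 1.47% to 1.76% as ambiguous, were left out of totals and tests.

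Counts were normalized by TMM, filtered by expression and tested with the quasi-likelihood test of edgeR 4.0.16 (R 4.3.3, robust, Benjamini-Hochberg over all 17144 tested genes). The standard error is the absolute log2 fold change divided by the square root of the F statistic, and intervals are 95%. Levels per kb use the union of all exons of a gene. The fits were tested on simulated data. Intervals and the limit of 3 counts cover counting or library spread only. Replicates of a group differed by more than sampling noise (chi-square per degree of freedom 2.28 with FGF2 and 1.76 without). The alternatives were RLE, upper quartile or total count scaling, no filter, at least 10 counts in every library, DESeq2 1.42.0, limma-voom (limma 3.58.1), a replicate block, each library left out, a threshold of 0.01 and, for levels per kb, the longest transcript or no length correction.

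The members, the 12 further gene lists and the tests were chosen with earlier results of these data known. All 10 members and the 7 other family genes were named, and from each other list at most the 4 genes with the smallest adjusted p-value at a mean of at least 1 CPM. Others named (Pecam1, Cldn5, Cdh5, Emcn, Tie1, Tek, Kcnj8, Higd1b, Notch3, Anpep, Matn4, Cspg4, Ccbe1, Plat, Plau, Adamts3, P4ha1, Bnip3, Arnt, Slc2a1, Pdk1, Thbs1, Fgfr3, S100b, Nefl) were added after their values were seen. Promoter windows are from RefSeq, whose table held 8 of the 10 members.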

Additional observations from a re-analysis of the deposited data

How the results depend on the processing

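Pdgfrb kept its direction and its call in each alternative run. Flt1, which entered the filtered fits only through its high group, was also called without the filter and could not be tested where at least 10 counts in every library were required. With DESeq2, 2 members were called, 2 higher and 0 lower, in place of 5, 4 and 1, and 3999 genes in all, 2068 higher and 1931 lower, in place of 6949, 3541 and 3408. The fall of Kdr was not called without the expression filter, with limma-voom, with the replicate block or at a threshold of 0.01, each of which left 0 members lower. With each library left out, where the lone sample of a group is assumed to vary like the other group, between 3 and 4 members were called, between 2 and 4 higher and between 0 and 1 lower. No shift shared by replicates of the same number was seen. The difference between replicates 1 and 2 had a correlation of 0.00 between the groups over 17144 genes (0.006 over the 10858 with at least 100 counts). With 1 difference in each group, this cannot show whether equal numbers were grown or processed together. The replicate block changed no call other than that of Kdr among the members and family genes. Directions reversed for genes that had not passed. With a library left out these were Pdgfc, which lay between -0.02 and 0.23, Vegfc, between -0.43 and 0.19, Vegfd, between -0.19 and 0.69 and also at -0.18, and Nrp1 at -0.03, and with upper quartile scaling Nrp1 at -0.0046. The number of genes called over the 12 lists was 76 of the 140 listed, not all of which were tested. It lay between 60 (DESeq2) and 79 over the alternatives. Of all tested genes 40.5% were called, and 22.4% of those with an adjusted p-value in DESeq2. The log2 ratio of the summed VEGF receptors was 0.36 and lay between 0.06 and 0.75 with a library left out. It lay between 0.34 and 0.67 over the longest transcript as length, no length correction and total count scaling. Causes of these differences were not tested. No alternative varied the depth. Flt4, at no more than 3 counts in any library, was too low to test.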
